A study of Mus musculus with 12 samples.

Results

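The transcripts of 8 oxygen sensing genes were compared between group 2 innate lymphoid cells (ILC2s) and eosinophils that had been cultured alone or with each other. The genes were Hif1a, Epas1, Arnt, Egln1, Egln2, Egln3, Hif1an and Vhl. They were chosen by name for what their proteins do, with earlier results of these data known, and each symbol matched 1 Ensembl identifier of the 49315 in the count table.

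RNA-seq read counts per gene were available for 12 libraries from C57BL/6 mice, 3 in each of 4 groups. ILC2s, lymphocytes without antigen receptors, came from lung, were expanded by the alarmins IL-25 and IL-33 together with IL-7 and IL-2, and then held for 48 h in IL-7 and IL-2 only. Eosinophils, granulocytes of type 2 immunity, came from blood as the cells not retained by B220 and CD90 beads and received IL-33 for 24 h. After washing, each cell type was cultured for 24 h in medium without cytokines, either alone or with the other, and both were separated by flow cytometry before lysis. The 4 groups were therefore ILC2s alone, ILC2s with IL-33 activated eosinophils, IL-33 activated eosinophils alone, and IL-33 activated eosinophils with ILC2s. Every ILC2 library derived from expanded cells and every eosinophil library from cells exposed to IL-33, so no library shows either cell type in its resting state. The age and sex of the mice, the oxygen level and the cell density of the cultures are not given in any source used here. The labels also do not say whether replicates were separate animals or cultures, and p-values then measure only the spread between these libraries, which may be technical.

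Cells sense oxygen through hypoxia-inducible factors (HIFs), each a pair of an oxygen-regulated α subunit and the constant partner ARNT. HIF-1α is encoded by Hif1a and HIF-2α by Epas1. In the presence of oxygen, iron and 2-oxoglutarate, the prolyl hydroxylases encoded by Egln1 (PHD2), Egln2 (PHD1) and Egln3 (PHD3) mark the α subunit for the VHL ubiquitin ligase, which sends it to the proteasome. The asparaginyl hydroxylase encoded by Hif1an (FIH) blocks the binding of the coactivators p300 and CBP. Because α subunits are governed mainly by protein turnover, transcript counts do not measure HIF protein or its activity. Egln1 and Egln3 are themselves textbook HIF target genes, which makes them both brakes on the pathway and readouts of it, whereas Egln2 is not induced by hypoxia in most cells. HIF-1 drives glycolysis in activated leukocytes, and HIF-2α is known best from endothelium, kidney and lung.

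The positions of the genes in mm10, from GENCODE M21, were Hif1a (ENSMUSG00000021109, chr12:73901375-73947530, plus strand), Epas1 (ENSMUSG00000024140, chr17:86753700-86833410, plus strand), Arnt (ENSMUSG00000015522, chr3:95434388-95497240, plus strand), Egln1 (ENSMUSG00000031987, chr8:124908587-124949324, minus strand), Egln2 (ENSMUSG00000058709, chr7:27158658-27166802, minus strand), Egln3 (ENSMUSG00000035105, chr12:54178981-54203860, minus strand), Hif1an (ENSMUSG00000036450, chr19:44562850-44576274, plus strand) and Vhl (ENSMUSG00000033933, chr6:113623959-113631633, plus strand). All 8 are protein coding, and counts are over their exons. Hif1a shares exon sequence with the antisense gene Gm15283, which never exceeded 188 counts in a library against at least 4264 for Hif1a, and Egln2 shares exon sequence on the opposite strand with Cyp2t4, at most 32 counts against at least 1063. Since the strand setting of the counting is not given in any source used here, reads from these overlaps cannot be told apart. Hif1a also overlaps Gm49321 on its own strand, a gene not analysed here.

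HIF binds DNA at the core letters ACGTG and GCGTG. RefSeq promoter windows (GRCm38.p6, 250 bases before to 50 after a start) were matched for 7 of the 8 genes, all but Epas1, and these motifs were searched on both strands, so that the palindrome CACGTG counts as 2 matches. The following 4 windows are shown because they contrast the hydroxylase genes that moved most in coculture (Egln3 and Egln1) with those not called in eosinophils (Egln2 and Hif1an). Each is printed 5′ to 3′ from 250 bases before to 30 after the start, with motif matches in capitals.
Egln3 (chr12:54203845-54204124, minus strand): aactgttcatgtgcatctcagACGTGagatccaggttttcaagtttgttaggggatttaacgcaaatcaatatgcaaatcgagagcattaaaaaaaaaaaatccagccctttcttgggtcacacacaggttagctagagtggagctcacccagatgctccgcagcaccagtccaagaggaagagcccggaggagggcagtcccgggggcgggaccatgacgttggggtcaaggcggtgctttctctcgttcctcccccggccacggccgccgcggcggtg
Egln1 (chr8:124949225-124949504, minus strand): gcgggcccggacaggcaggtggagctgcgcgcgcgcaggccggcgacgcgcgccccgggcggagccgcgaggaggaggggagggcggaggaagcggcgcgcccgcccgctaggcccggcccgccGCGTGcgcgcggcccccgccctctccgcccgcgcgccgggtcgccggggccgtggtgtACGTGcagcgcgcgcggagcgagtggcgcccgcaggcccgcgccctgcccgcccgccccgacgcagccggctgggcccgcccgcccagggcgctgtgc
Egln2 (chr7:27166773-27167052, minus strand): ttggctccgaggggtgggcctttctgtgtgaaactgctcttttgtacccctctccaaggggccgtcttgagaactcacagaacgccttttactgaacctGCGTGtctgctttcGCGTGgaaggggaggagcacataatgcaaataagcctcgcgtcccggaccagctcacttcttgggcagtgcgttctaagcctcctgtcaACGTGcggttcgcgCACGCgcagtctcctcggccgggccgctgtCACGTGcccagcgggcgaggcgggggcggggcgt
Hif1an (chr19:44562604-44562883, plus strand): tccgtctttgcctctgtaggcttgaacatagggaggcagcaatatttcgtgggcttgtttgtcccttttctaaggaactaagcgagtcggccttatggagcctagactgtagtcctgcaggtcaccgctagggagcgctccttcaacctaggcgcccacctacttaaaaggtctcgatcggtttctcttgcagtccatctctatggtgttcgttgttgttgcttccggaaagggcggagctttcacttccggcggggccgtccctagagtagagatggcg

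The Egln3 window held 1 match, starting at -229 from the start. The Egln1 window held 2, at -126 and -68, in a sequence of 86% G and C over the 300 bases. Egln2 had 6 matches in the window shown and 1 in a second RefSeq window, while the Hif1an window had none. Of the others, Hif1a held 3 matches, Arnt 1 and Vhl 0. At least 1 match was present in 43.8% of all 32851 windows, at least 2 in 20.6%, at least 3 in 8.93% and at least 6 in 0.694%. Windows of the HIF target genes listed below held at least 1 match in 20 of 25 (80%, targets outside glucose use) and 23 of 29 (79.3%, targets of glucose use). The share was as high, 17 of 21 windows (81%), for the enzymes of 2-oxoglutarate, succinate and fumarate. It was 12 of 17 (70.6%) for other regulators of HIF, 5 of 9 (55.6%) for bHLH-PAS relatives and 3 of 6 (50%) for the VHL ligase. Egln2, whose window held the most matches, was the prolyl hydroxylase gene with the smallest change in coculture in both cell types. A match in these letters is a description and not evidence of binding, and windows without one say nothing of enhancers elsewhere.

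Library totals ran from 16769929 to 22928961 counts, so that 3 counts, the limit that a count of 0 allows, correspond to 0.131 to 0.179 CPM, the count scaled to library size. Every pair of replicates differed beyond sampling noise, and none was treated as a duplicate. The labels of the cell types were matched by their markers: the summed level of 10 ILC2 markers was 4218 to 5174 CPM in ILC2 libraries and 10.1 to 18.8 in eosinophil libraries, and that of 10 eosinophil markers was 7778 to 10564 CPM in eosinophil libraries and 3.18 to 4.72 in ILC2 libraries, with Prg3 at 0 there. All levels below are CPM after TMM scaling over the 12 libraries, given for replicates 1, 2 and 3 and as mean ± SD (n = 3). Fold changes are log2 values ± SE from edgeR's quasi-likelihood test with Benjamini-Hochberg adjustment over all genes tested, with calls at an adjusted p under 0.05.

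In ILC2s cultured with eosinophils, 5 of the 8 genes rose and 3 fell. All 8 passed the low-count filter in every comparison. Over all 14438 genes tested in this comparison, 36.8% were called higher and 35.6% lower, so the number of calls alone says nothing of these genes, and their sizes are given below. Egln3, Epas1 and Hif1a rose most, and Egln1 rose less, while Hif1an fell. In eosinophils cultured with ILC2s, 0 of the 8 rose and 3 fell, against 11.4% higher and 13.5% lower of the 13109 genes tested. Those 3 were Egln3, Egln1 and Vhl, and the same 3 were among the genes that rose in ILC2s. Neither α subunit gene passed the test in eosinophils.

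**Figure D1:**
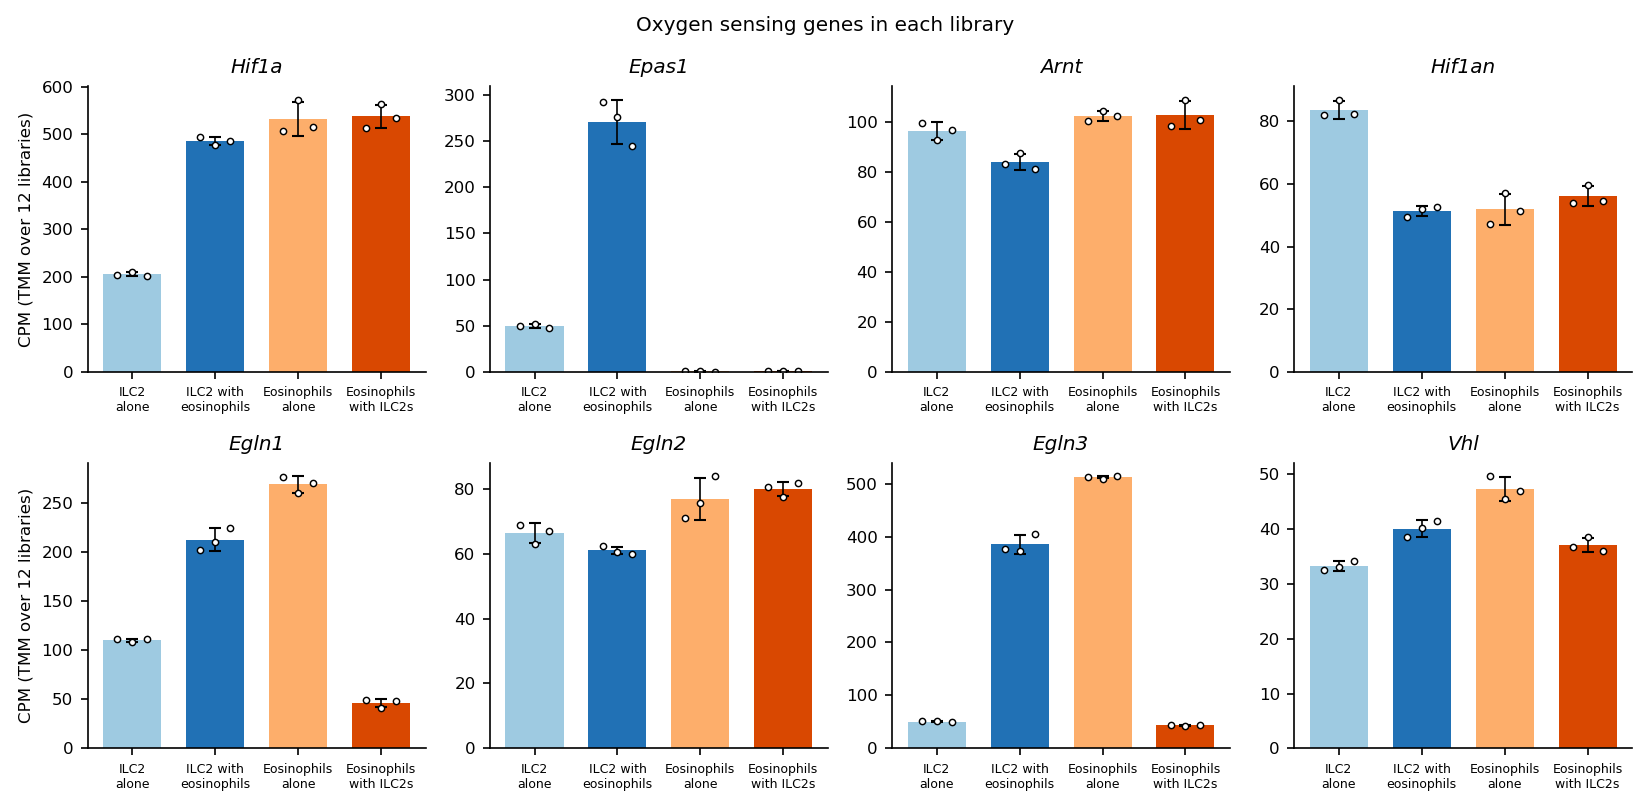
Levels of the 8 oxygen sensing genes in each library (points), with group means (bars from 0) and SD (error bars), in CPM after TMM scaling over 12 libraries, n = 3 a group. Egln3 and Egln1 are high in ILC2s with eosinophils and in eosinophils alone and low in eosinophils with ILC2s, whereas Epas1 is nearly limited to ILC2s.

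Of the α subunit genes, Hif1a stood at 205, 210.0 and 203 CPM in ILC2s alone and at 495, 478 and 485 in ILC2s with eosinophils. All 3 cocultured libraries lay above all 3 cultured alone, with means of 206 ± 3.77 and 486 ± 8.46, a change of 1.23 ± 0.038 (2.35-fold, edgeR adjusted p = 9.7e-22). In eosinophils Hif1a stood at 507, 573 and 516 CPM alone and 514, 564 and 535 with ILC2s. These ranges overlapped, and the change of -0.02 ± 0.064 was not called (edgeR adjusted p = 0.894). On the TMM scale Hif1a in cocultured ILC2s thus approached its eosinophil level from below. On library totals its mean in cocultured ILC2s, 542 ± 10.5 CPM, was instead above that of eosinophils alone (446 ± 35.1) and with ILC2s (458 ± 22.0).

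Epas1 stood at 49.3, 52.0 and 47.0 CPM in ILC2s alone and at 292, 276 and 245 with eosinophils. The groups did not overlap, and the rise was 2.45 ± 0.054, or 5.46-fold (edgeR adjusted p = 2.3e-25); 4.08% of the genes tested had a higher fold change. Eosinophils held almost no Epas1: 0.936, 0.616 and 0.310 CPM alone, from 29 counts in 3 libraries, and 0.742, 0.731 and 0.512 with ILC2s, from 34 counts. Their change of 0.07 ± 0.48 was not measurable at this depth (edgeR adjusted p = 0.938). The Epas1 level of either eosinophil group was below that of ILC2s alone. Epas1 is also an endothelial gene; the summed level of the 10 endothelial markers in ILC2 libraries was 1.22 to 2.10 CPM alone and 3.24 to 3.82 with eosinophils, with Cldn5 and Sox17 at 0 in both groups. Egfl7 alone carried that rise, with means of 0.307 and 3.14 CPM. All other endothelial markers with counts were lower with eosinophils, among them Plvap (0.816 and 0.255 CPM), Vwf (0.225 and 0.110) and Cdh5 (0.111 and 0.0159). The part of endothelial cells in the Epas1 rise was not tested.

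Per kilobase of exon, Hif1a was the more abundant α subunit transcript in every group. It made up 79.8% ± 0.529 of the summed Hif1a and Epas1 level in ILC2s alone and, after coculture, 63.0% ± 1.96 (SD, n = 3). The 3 cocultured libraries, at 61.6%, 62.2% and 65.3%, lay below the 3 alone, at 79.7%, 79.3% and 80.4%. In eosinophils the Hif1a share was 99.9% in both groups. With 3 libraries a side no exact permutation test of these shares can reach significance, and they are given as a description.

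Arnt, which encodes the constant partner of both α subunits, changed little. It stood at 99.7, 92.8 and 96.5 CPM in ILC2s alone and 83.2, 87.3 and 81.1 with eosinophils, without overlap, a fall by 0.21 on the log2 scale (SE 0.044, edgeR adjusted p = 0.000141). In eosinophils it stood at 100.4, 104 and 102 CPM alone and 98.2, 109 and 101 with ILC2s, and these ranges overlapped (change -0.02 ± 0.063, edgeR adjusted p = 0.828). Across the 4 groups its mean varied between 83.9 and 103 CPM on the TMM scale.

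Among the prolyl hydroxylase genes, Egln3 moved furthest in both cell types and in opposite directions. It stood at 50.9, 50.8 and 49.5 CPM in ILC2s alone and at 377, 373 and 406 with eosinophils, a rise of 2.93 ± 0.044 (edgeR adjusted p = 4.0e-29). In eosinophils it stood at 512, 509.8 and 514 CPM alone and 44.7, 42.9 and 44.2 with ILC2s. There the groups were separated 11.9-fold, a change of -3.57 ± 0.059 (edgeR adjusted p = 2.9e-13), and 16 of the 13109 genes tested had a lower fold change. Egln3 replicates were tight, with SDs of 0.794 CPM in ILC2s alone and 2.22 in eosinophils alone. By the TMM scale, coculture took eosinophils from the highest of the 4 group means to the lowest. On library totals the means of eosinophils alone and ILC2s with eosinophils were close, at 429 ± 6.01 and 430 ± 17.3 CPM.

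Egln1, the main prolyl hydroxylase of most cells, moved the same ways with smaller steps in both cell types. Its levels were 111, 109 and 111 CPM in ILC2s alone and 202, 211 and 225 with eosinophils, a rise of 0.94 ± 0.042 (edgeR adjusted p = 4.4e-18). Eosinophils went from 277, 260.3 and 270.5 CPM alone to 49.0, 41.4 and 48.0 with ILC2s, 5.96-fold lower at -2.57 ± 0.073 (edgeR adjusted p = 2.7e-11). No library of one group entered the range of the other in either cell type, and 68 of the 13109 genes had a lower fold change in eosinophils.

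Egln2, which encodes the third prolyl hydroxylase, stayed near its starting level. It stood at 69.0, 63.1 and 67.0 CPM in ILC2s alone and 62.3, 60.7 and 60.0 with eosinophils; the ranges were separate by a small gap. The change of -0.13 ± 0.049 had an edgeR adjusted p of 0.0206, and the call was lost without ILC2s alone replicate 1 (adjusted p = 0.0762) or 3 (0.0643), without ILC2s with eosinophils replicate 2 (0.0812) or 3 (0.0656), without the low-count filter (0.103) and with all 12 libraries in 1 fit (0.0944). In eosinophils it stood at 71.1, 75.5 and 83.9 CPM alone and 80.5, 77.6 and 81.9 with ILC2s, an overlap with a change of 0.03 ± 0.071 (edgeR adjusted p = 0.814).

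**Figure D2:**
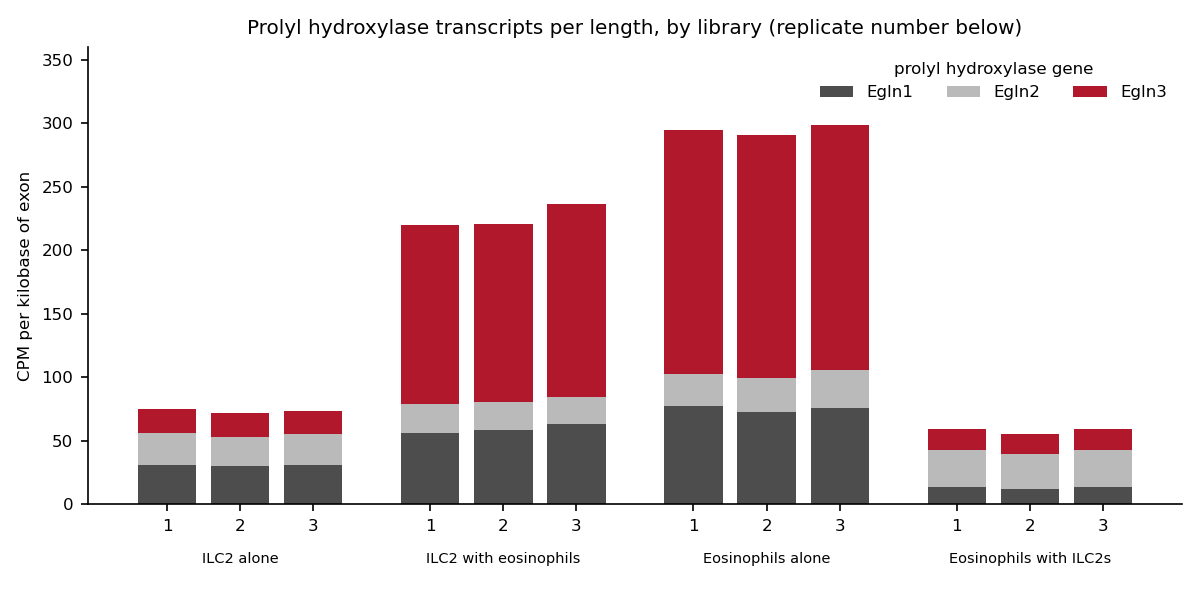
Summed level of the 3 prolyl hydroxylase transcripts in each library, in CPM per kilobase of exon and stacked by gene, with replicate numbers below the bars. Egln3 makes up 64.1% and 65.3% of the stack in ILC2s with eosinophils and in eosinophils alone, and 25.8% and 28.5% in the other groups.

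The make-up of the prolyl hydroxylase transcripts differed between culture alone and coculture in every library of both cell types; it is given as a description, without a test. Per kilobase, Egln3 was 25.8% ± 0.667 of the Egln1, Egln2 and Egln3 total in ILC2s alone and 64.1% ± 0.490 after their coculture (SD, n = 3). In eosinophils it was 65.3% ± 0.548 alone and 28.5% ± 0.554 with ILC2s. Egln1 held the largest share in ILC2s alone, at 41.9% ± 0.428, while Egln2 did in cocultured eosinophils, at 49.4% ± 0.741, although its own level hardly differed. Read with the length of the longest transcript in place of all exons, Egln2 and Egln1 were at 38.8% and 37.9% in ILC2s alone, so their order there rests on the length used. The per-kilobase level of Egln3 was 18.9 in ILC2s alone, 145 in ILC2s with eosinophils, 192 in eosinophils alone and 16.5 in eosinophils with ILC2s. It thereby ranked above 98% of the genes at 1 CPM or more in cocultured ILC2s, and above 71.5% of them in cocultured eosinophils.

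Hif1an, which encodes the asparaginyl hydroxylase, moved against Egln1 and Egln3 in ILC2s. It stood at 81.8, 86.9 and 82.2 CPM alone and 49.5, 52.0 and 52.5 with eosinophils, without overlap, a change of -0.71 ± 0.049 (edgeR adjusted p = 1.4e-13). In eosinophils it stood at 47.3, 57.1 and 51.4 CPM alone and 54.0, 59.7 and 54.6 with ILC2s, where the ranges overlapped and the change of 0.08 ± 0.083 was not called (edgeR adjusted p = 0.537). ILC2s alone held the highest level of the 4 groups, and the other 3 lay between 47.3 and 59.7 CPM with overlapping neighbours.

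Vhl, which encodes the substrate-binding subunit of the ubiquitin ligase, made small moves in the directions of Egln1 and Egln3. It stood at 32.5, 33.04 and 34.2 CPM in ILC2s alone and 38.5, 40.2 and 41.6 with eosinophils, a rise of 0.26 ± 0.061 (edgeR adjusted p = 0.000385). On library totals without TMM this rise was 0.10 and was not called (adjusted p = 0.128). In eosinophils Vhl stood at 49.7, 45.5 and 46.9 CPM alone and 36.7, 38.5 and 36.0 with ILC2s, without overlap, and fell by 0.38 on the log2 scale (SE 0.073, edgeR adjusted p = 0.00163).

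**Figure D3:**
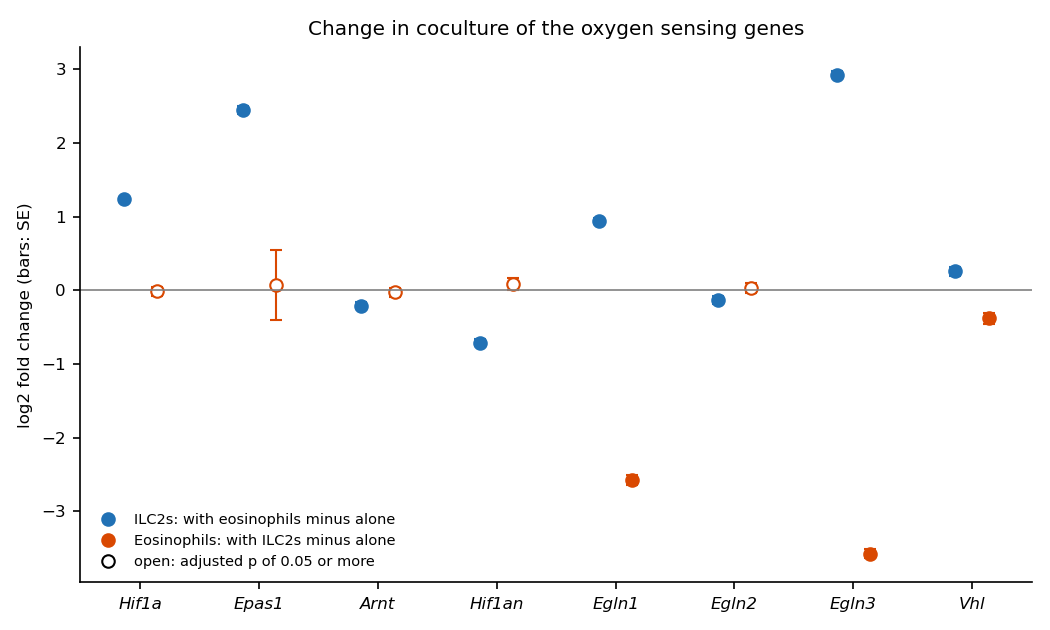
log2 fold change in coculture (points) with SE (bars) of the 8 genes in ILC2s (blue) and eosinophils (orange), from edgeR. Open points did not pass an adjusted p of 0.05; Egln3 lies at 2.93 in ILC2s and -3.57 in eosinophils, and Hif1a and Epas1 are open in eosinophils.

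The order of the 4 groups, given here on the TMM scale, differed between the genes. For Egln1 and Egln3 it ran from eosinophils alone through ILC2s with eosinophils and ILC2s alone to eosinophils with ILC2s, and all 3 steps were larger than the ranges of the libraries, the first only on the TMM scale. For Hif1a, Arnt and Egln2 both eosinophil groups came first, with overlapping ranges. ILC2s alone came last for Hif1a, and ILC2s with eosinophils came last for Arnt and Egln2. For Epas1 it was ILC2s with eosinophils, ILC2s alone and then both eosinophil groups, which overlapped. For Vhl, eosinophils alone came first and ILC2s alone last, and the groups between them, cocultured ILC2s and cocultured eosinophils, overlapped. On library totals Hif1a and Vhl were instead highest in cocultured ILC2s (542 and 44.7 CPM), and Vhl was lowest in cocultured eosinophils (31.6 CPM). Arnt and Egln2 were then highest in ILC2s alone (120 and 82.9 CPM). Steps between the cell types that were separate both on the TMM scale and on library totals were those of Epas1, the last step of Egln1 and Egln3, and the step of Hif1an from ILC2s alone to cocultured eosinophils.

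The coculture changes of the cell types were then compared directly, as the ILC2 change minus the eosinophil change over all 12 libraries. Of the 8 genes, 5 had a higher and 2 a lower change in ILC2s, against 26.8% higher and 24.8% lower of 15745 genes tested. The difference was 6.48 ± 0.077 for Egln3 (edgeR adjusted p = 1.8e-25), and 70 of the genes tested had a higher one. It was 3.49 ± 0.087 for Egln1 (adjusted p = 7.4e-20), 2.35 ± 0.42 for Epas1 (adjusted p = 4.7e-05), 1.23 ± 0.076 for Hif1a (adjusted p = 2.7e-12) and 0.62 ± 0.094 for Vhl (adjusted p = 5.9e-06). Hif1an differed in the other direction, at -0.81 ± 0.096 (edgeR adjusted p = 1.4e-07). The Arnt difference of -0.21 ± 0.079 (edgeR adjusted p = 0.0328) was lost without the low-count filter and without any 1 of 6 libraries, namely ILC2s alone replicates 1 and 3, ILC2s with eosinophils replicates 1 and 3, eosinophils alone replicate 1 and eosinophils with ILC2s replicate 2, each time leaving Hif1an as the 1 gene called lower. Egln2 did not pass, at -0.18 ± 0.089 (edgeR adjusted p = 0.0967), but was called lower with upper quartile scaling (-0.25, adjusted p = 0.0177), on library totals (-0.37, adjusted p = 0.000703) and without eosinophils alone replicate 3 (-0.25, adjusted p = 0.0131). Of the 8 genes, 3 (37.5%) were called higher in ILC2s and lower in eosinophils, compared with 789 (6.6%) of the 11963 genes tested in both. These were Egln3, Egln1 and Vhl, and on library totals the rise of Vhl in ILC2s was not called (edgeR adjusted p = 0.128).

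Between the cell types cultured alone, 2 of the 8 genes were higher in ILC2s and 5 lower, when 40.8% of 14525 genes were higher and 39.9% lower. Epas1 was higher in ILC2s by 6.33 ± 0.18 (edgeR adjusted p = 5.2e-14) and Hif1an by 0.69 ± 0.076 (adjusted p = 6.9e-07). Lower in ILC2s were Egln3, at -3.34 ± 0.058 (edgeR adjusted p = 2.5e-16), Hif1a at -1.36 ± 0.064 (adjusted p = 2.9e-11) and Egln1 at -1.28 ± 0.055 (adjusted p = 1.0e-11). The remaining values were smaller: -0.50 ± 0.071 for Vhl, -0.20 ± 0.070 for Egln2 and -0.08 ± 0.058 for Arnt, which was not called (adjusted p = 0.224). On library totals the median over all genes shifted by 0.57, which left Arnt at 0.49, Egln2 at 0.37 and Vhl at 0.07, so no direction is given for these 3.

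Between the cocultured cells the order of Egln3 and Egln1 was the reverse. Of the 8 genes, 3 were higher in ILC2s and 4 lower, while 43.6% of 14634 genes were higher and 40.5% lower. Egln3 was higher in ILC2s by 3.12 ± 0.055 (edgeR adjusted p = 1.0e-28), Egln1 by 2.20 ± 0.061 (adjusted p = 1.2e-23) and Epas1 by 8.66 ± 0.12 (adjusted p = 1.2e-31). The 4 lower values were small, at -0.40 ± 0.055 for Egln2, -0.30 ± 0.054 for Arnt, -0.15 ± 0.046 for Hif1a and -0.14 ± 0.062 for Hif1an. With upper quartile scaling 1 of them was still called lower and with library totals 0, and Hif1a, Arnt and Hif1an took positive values by totals, so they have no firm direction here. Vhl did not pass, at 0.10 ± 0.068 (edgeR adjusted p = 0.163), but was called higher in ILC2s with upper quartile scaling (0.30, adjusted p = 0.000212) and on library totals (0.50, adjusted p = 1.2e-07).

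The products of other genes bring the α subunits to degradation or alter their activity. The counts of the lists that follow stand beside 36.8% higher and 35.6% lower of all genes in ILC2 coculture, and 11.4% and 13.5% in eosinophil coculture. All 6 other genes of the VHL ligase and its neddylation rose in cocultured ILC2s, with a list median of 0.75 beside 0.0029 for all genes. They include Elob, the elongin B subunit (0.88 ± 0.046, edgeR adjusted p = 2.3e-16), Nedd8, the modifier of the cullin (0.89 ± 0.052, adjusted p = 3.9e-15), and Ube2m, its conjugating enzyme (0.68 ± 0.045, adjusted p = 5.5e-14). In eosinophils 1 of the 6 fell, Eloc or elongin C (-0.30 ± 0.088, adjusted p = 0.025), a call lost in 4 of 6 fits that left out 1 library (EOS alone replicates 1 and 3, EOS with ILC2s replicates 2 and 3) and by library totals, and the other 5 did not pass.

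Of 20 other regulators of HIF stability and activity, 8 rose and 10 fell in ILC2s, and 1 rose and 4 fell among the 17 tested in eosinophils. The 8 of 20 that rose in ILC2s is a share near the 36.8% of all genes. Hsp90aa1, a chaperone that binds HIF-1α, rose by 2.23 ± 0.043 in ILC2s (edgeR adjusted p = 1.2e-26) and changed by -0.91 ± 0.060 in eosinophils (adjusted p = 9.1e-08). Its paralogue Hsp90ab1 rose by 1.72 ± 0.038 in ILC2s (adjusted p = 2.1e-25). Cited2, a HIF target whose product competes with HIF-1α for p300 and CBP, moved in the directions of Egln1 and Egln3. Its order of groups differed, for Cited2 was lowest in ILC2s alone on the TMM scale and not in cocultured eosinophils. Cited2 stood at 88.5, 78.5 and 93.9 CPM in ILC2s alone, 219, 227 and 233 in cocultured ILC2s, 332, 329 and 351 in eosinophils alone and 182, 160.2 and 161 in cocultured eosinophils. Its groups were separate in both cell types, with changes of 1.37 ± 0.048 (edgeR adjusted p = 1.6e-20) and -1.04 ± 0.063 (adjusted p = 3.8e-08). Rack1, a scaffold linked to oxygen-independent turnover of HIF-1α, rose in both cell types. The rise was 0.66 ± 0.037 in ILC2s (edgeR adjusted p = 8.0e-16) and 0.45 ± 0.069 in eosinophils (adjusted p = 0.00028).

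Relatives of the HIF proteins in the bHLH-PAS family gave no common direction. In ILC2s, 2 of 7 rose and 4 fell, among them Hif3a, an α subunit with a short activation domain, which rose by 1.503 ± 0.14, with 3.15 to 3.63 CPM alone and 9.32 to 11.0 CPM with eosinophils (edgeR adjusted p = 7.7e-11). The circadian genes Clock and Arntl changed by -0.91 ± 0.053 and -0.62 ± 0.061 in ILC2s (adjusted p = 2.3e-15 and 3.7e-10). Ahrr rose in ILC2s by 1.48 ± 0.22 (edgeR adjusted p = 6.8e-07). In eosinophils 4 were tested and 3 rose, Ahrr by 1.00 ± 0.17 (edgeR adjusted p = 0.000764), Arntl by 0.43 ± 0.11 (adjusted p = 0.00938) and Ahr by 0.26 ± 0.075 (adjusted p = 0.0228). Without 1 of 4 single libraries (EOS alone replicates 1 and 3, EOS with ILC2s replicates 2 and 3) Ahr was not called, nor was Arntl without EOS with ILC2s replicate 3, so that 1 of 4 rose there. Hif3a had 6 counts in eosinophils alone and 2 with ILC2s and was not tested there.

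The hydroxylases consume 2-oxoglutarate and are inhibited by succinate and fumarate, so 19 enzymes of these metabolites were counted too. In ILC2s 12 rose, 2 fell and 5 did not pass (median 0.39), with Glud1, which makes 2-oxoglutarate from glutamate, at 1.53 ± 0.039 (edgeR adjusted p = 6.0e-24), Fh1, fumarate hydratase, at 1.21 ± 0.064 (adjusted p = 2.7e-16) and Sdhd, a succinate dehydrogenase subunit, at 1.04 ± 0.052 (adjusted p = 7.8e-17). On library totals 10 rose and 4 fell. In eosinophils 4 rose, 0 fell and 15 did not pass (median 0.08), the 3 with the smallest p being Sdha (0.28 ± 0.054, adjusted p = 0.00163), Idh3g (0.29 ± 0.069, adjusted p = 0.00681) and Ogdh (0.26 ± 0.062, adjusted p = 0.00732; not called without EOS alone replicate 1). Without that library 2 rose in eosinophils.

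Of 25 textbook HIF target genes outside glucose use, 24 passed the low-count filter in ILC2s and 18 in eosinophils. Of these, 23 of 24 rose in ILC2s (median 1.70), while 17 of 18 tested fell in eosinophils (median -1.80, beside 0.0044 for all genes), as Egln3 and Egln1 did. The ILC2 median was the same with Adm, at 0 counts in ILC2s alone, set to the bound that 3 counts give. On library totals 22 rose in ILC2s. Vegfa, the angiogenic growth factor, stood at 6.86, 7.35 and 6.85 CPM in ILC2s alone, 70.9, 75.7 and 85.3 in cocultured ILC2s, 182, 175 and 157 in eosinophils alone and 8.78, 12.995 and 10.1 in cocultured eosinophils. Bnip3, a mitophagy receptor, stood at 34.0, 30.02 and 34.7 CPM in ILC2s alone, 225, 235 and 269.9 in cocultured ILC2s, 289, 273 and 252 in eosinophils alone and 24.5, 26.6 and 30.04 in cocultured eosinophils. The changes in eosinophils were -4.04 ± 0.12 for Vegfa (edgeR adjusted p = 2.8e-11) and -3.35 ± 0.087 for Bnip3 (adjusted p = 1.2e-11), and neither gene's groups overlapped in either cell type. Fam162a, a mitochondrial HIF-1 target, changed by 2.93 ± 0.058 in ILC2s and -3.07 ± 0.10 in eosinophils, and Tfrc, the transferrin receptor, by 3.78 ± 0.063 and -1.18 ± 0.072. The exceptions, named after their values were seen, were Nrn1 in ILC2s (0.71 ± 0.44, adjusted p = 0.152) and Car9 in eosinophils (0.31 ± 0.20, adjusted p = 0.316).

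Of 20 target genes of glucose transport, glycolysis and lactate export, 18 rose in ILC2s (median 1.87) and 20 fell in eosinophils (median -1.37). Tpi1, triosephosphate isomerase, went from 49.9 ± 4.31 to 864 ± 29.7 CPM in ILC2s and from 1449 ± 64.7 to 238 ± 11.0 in eosinophils. The changes were 4.11 ± 0.051 (edgeR adjusted p = 7.5e-31) and -2.63 ± 0.059 (adjusted p = 4.3e-12). Slc16a3, the lactate exporter, and Gapdh changed by 4.23 ± 0.053 and 3.12 ± 0.039 in ILC2s, and Pfkl, a phosphofructokinase, and Pgk1 by -2.76 ± 0.057 and -2.39 ± 0.055 in eosinophils. The exceptions in ILC2s, named after their values were seen, were Pfkfb4, which did not pass (-0.02 ± 0.15), and Pdk1, the kinase that restrains pyruvate dehydrogenase, which fell by 0.24 on the log2 scale (edgeR adjusted p = 1.1e-05). Higher in ILC2s and lower in eosinophils were 17 of 18 (94.4%) and 18 of 20 (90%) of the target genes tested in both, beside 6.6% of all genes.

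**Figure D4:**
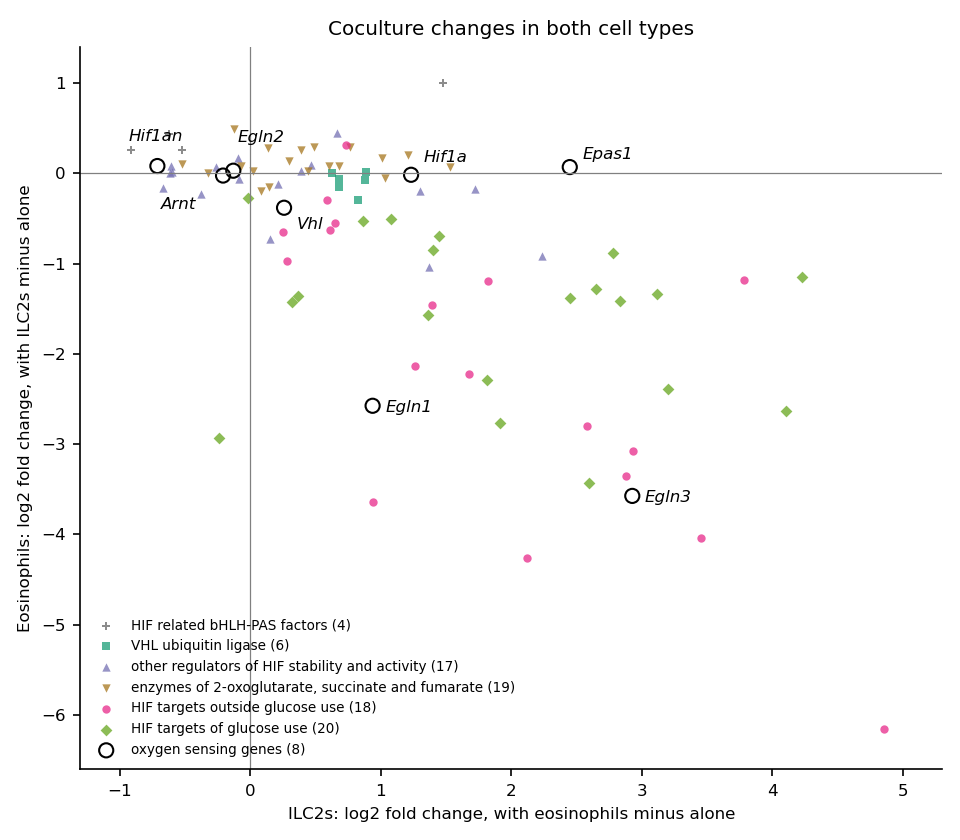
log2 fold change in coculture of ILC2s (horizontal) and eosinophils (vertical) for the 8 oxygen sensing genes (circles, named) and the genes of 6 pathway lists tested in both (symbols by list, numbers tested in brackets). Most HIF targets and Egln1 and Egln3 lie at the lower right, while Hif1a and Epas1 lie at the right near the horizontal line.

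Marker genes of other cells moved in some of the same comparisons. In eosinophils the summed level of 11 basophil and mast cell markers was 233 to 256 CPM alone and 110 to 118 with ILC2s (Mcpt4 at 0). Most of it was Gata2, with means of 154 and 80.3 CPM, then Cd200r3 (33.7 and 11.0), Hdc (33.6 and 14.3) and Kit (11.5 and 2.69). Fcer1a was at 3.72 and 1.67 CPM, and Ms4a2 alone was higher with ILC2s (2.83 and 3.48). The sum of 10 monocyte and macrophage markers in eosinophils was 396 to 437 CPM alone and 423 to 452 with ILC2s, nearly all Csf1r (369 and 411). In ILC2s the basophil and mast cell sum was 222 to 239.9 CPM alone and 84.6 to 105 with eosinophils (Mcpt4 and Tpsb2 at 0). Nearly all of that sum was Kit, with means of 167 and 61.8 CPM, and Cd200r3, with 62.0 and 29.8. Mcpt8, Fcer1a, Ms4a2 and Prss34 were instead higher with eosinophils, all under 1 CPM. The sum of 7 erythroid and platelet markers in ILC2s was 1.19 to 1.96 CPM alone and 15.4 to 19.7 with eosinophils. Hba-a1 carried it, with means of 0.489 and 16.1 CPM, whereas Alas2 was at 1.02 and 0.535. The sum of 7 neutrophil markers was 0.0872 to 0.454 CPM alone and 1.89 to 6.34 with eosinophils, mostly Mpo, and that of 6 epithelial markers was 12.997 to 15.5 and 5.11 to 7.23 CPM. The epithelial fall was almost all Cdh1, with means of 9.17 and 0.944 CPM, while Epcam (3.50 and 3.57) and Krt18 (1.16 and 1.53) were not lower. The part of other cells in the changes above was not tested. In bulk RNA, fewer cells of a type and less RNA per cell cannot be told apart.

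Genes with the most similar pattern were found by Pearson's r of log2(CPM + 1) over the 12 libraries, among 10431 genes with at least 8 CPM in a group. The values describe 4 group means more than 12 independent points. Closest to Egln3 were Pfkl (r = 0.997), Mif (0.997) and Bnip3 (0.996). Closest to Egln1 were Kcnk5, a potassium channel gene (r = 0.993), Cdkn1a, which encodes the cell cycle inhibitor p21 (0.977), and Uck2 (0.977). Hif1a was nearest to Adap1 (r = 0.994), Resf1 (0.993) and Hsp90b1 (0.993), and Epas1 to Tmem109, Il2rb and Brinp3 (each r = 0.999), genes near absent from eosinophils. For Vhl the nearest were Fam133b (r = 0.979), Il4ra (0.969) and Higd1a (0.969), and for Hif1an Zfp715 (0.978), Crebrf (0.977) and Tsc22d1 (0.976). Arnt was nearest to Dvl3 (r = 0.963) and Egln2 to Tpst2 (0.975).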

How the data were processed

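The values used are the read counts per gene that the authors deposited in 1 table, whole numbers without normalization. Tools listed in the submitters' processing notes are STAR 2.5.2b, featureCounts of Subread 1.5.2, Trimmomatic 0.36 and bcl2fastq 2.17, with build mm10. How strand and multi-mapped reads were handled, and with which annotation, is not given in the sources used here. Symbols for 48970 of 49315 identifiers and exon lengths came from GENCODE M21 (same build), and all table columns were matched to samples by their names. Groups came from the labels. Each comparison was fitted on its 6 libraries (the difference of responses on all 12) by edgeR's quasi-likelihood F test (version 4.0.16, R 4.3.3) after filterByExpr and TMM, with no covariate. The SE is the size of the log2 fold change divided by the square root of F. The fits were also run on counts simulated around pooled means, with a set of genes changed equally up and down. That setting cannot check the scaling between groups. DESeq2 1.42.0, limma-voom (limma 3.58.1), other scalings and filters, a replicate block, 1 fit of all 12 libraries and leaving out each library were the alternatives. The 8 genes and the 6 pathway lists (97 genes) were chosen with earlier results of these data known. Named were the 8 genes, up to 4 genes of each list by smallest p in each coculture comparison, of which the first 3 were used, and the 3 genes most like each of the 8, of which the nearest was used for Arnt and Egln2. Precision is limited by counting error and by 3 libraries a group.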

Additional observations from a re-analysis of the deposited data

Results flagged for a closer look

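The coculture change differed between ILC2s and eosinophils, by the edgeR interaction term over all 12 libraries at an adjusted p under 0.05, for 7 of the 8 oxygen sensing genes. As the log2 change in ILC2s minus that in eosinophils, the difference was 6.48 for Egln3, 3.49 for Egln1, 2.35 for Epas1, 1.23 for Hif1a, 0.62 for Vhl, -0.21 for Arnt and -0.81 for Hif1an. The eosinophil part of the Epas1 value rests on 29 counts alone and 34 with ILC2s. The Arnt call was lost without the low-count filter and without some single libraries, as given above.

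The same test passed for the following genes of the pathway lists. Among HIF targets the difference was 7.47 for Vegfa, 6.21 for Bnip3, 5.99 for Fam162a, 4.94 for Tfrc, 6.72 for Tpi1, 5.57 for Pgk1, 5.36 for Slc16a3, 4.66 for Pfkl and 4.44 for Gapdh. Among regulators of HIF and the VHL ligase it was 3.12 for Hsp90aa1, 2.39 for Cited2, 1.88 for Hsp90ab1, 1.10 for Eloc, 0.93 for Elob, 0.85 for Nedd8, 0.81 for Rbx1 and 0.73 for Ube2m. In the bHLH-PAS family it was 3.07 for Hif3a, -1.19 for Clock, -1.08 for Arntl and -0.80 for Ahr; the Hif3a value rests on 8 eosinophil counts and was lost without EOS alone replicate 3 or without EOS with ILC2s replicate 1 or 3 (adjusted p = 0.243, 0.0527 and 0.0567). Among enzymes of 2-oxoglutarate, succinate and fumarate it was 1.44 for Glud1, 1.07 for Sdhd, 0.99 for Fh1 and -0.17 for Sdha, and the Sdha call was lost without the low-count filter and without any 1 of 8 single libraries.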

How the results depend on the processing

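In eosinophil coculture each of the 8 genes stayed on its side of the threshold in all 119 values under the alternatives. Genes called lower there also kept their direction, while a change of sign between values that were not called was not counted. Means of Hif1a and Arnt by library totals were slightly higher with ILC2s (458 and 87.5 CPM) than alone (446 and 85.6 CPM). In ILC2 coculture 113 of 120 values kept their direction and side, the exceptions being Egln2 and Vhl as given above. On library totals the median over all genes shifted by -0.16 in ILC2 coculture, 0.056 in eosinophil coculture, 0.57 and 0.40 between cell types alone and cocultured, and -0.19 in the difference. The higher share of the calls went from 50.8% to 40.9%, 45.7% to 58%, 50.5% to 70.1%, 51.8% to 65.8% and 51.9% to 39.6% in turn.

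Between cell types alone, library totals gave 3664 genes lower, 4 of the 8 higher and 3 lower, with Arnt at 0.49, Egln2 at 0.37 and Vhl at 0.0701; upper quartile scaling gave Arnt 0.16 and Egln2 0.0297. Between cocultured cells, library totals gave 6 of the 8 higher and 0 lower, with Hif1a at 0.24, Arnt at 0.10 and Hif1an at 0.26; upper quartile scaling left 1 lower, with Hif1a at 0.0458 and Hif1an at 0.0631. Sdha in ILC2 coculture was -0.0219 by totals. In the difference of responses, 1 of the 8 was lower without the low-count filter, and 1 to 3 when a library was left out. In eosinophil coculture all 12 libraries in 1 fit called 2276 genes higher, against 1493, and leaving out a library gave 948 to 1604, the lowest without EOS with ILC2s replicate 3. The cause was not tested.

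With the longest transcript as length, the shares in ILC2s alone, ILC2s with eosinophils, eosinophils alone and eosinophils with ILC2s were 37.9%, 25.4%, 24.7% and 19.0% for Egln1, 38.8%, 12.4%, 12.0% and 56.4% for Egln2, and 23.3%, 62.1%, 63.3% and 24.5% for Egln3. With no length correction they were 48.6%, 32.3%, 31.4% and 27.1% for Egln1, 22.2%, 58.5%, 59.7% and 25.8% for Egln3, and 29.2% and 47.1% for Egln2 in ILC2s alone and cocultured eosinophils. The Hif1a share was 82.9% and 67.7% in ILC2s alone and with eosinophils by the longest transcript, and 80.6% in ILC2s alone without length correction.

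Whether replicate numbers pair the libraries could not be settled. The correlation of deviations of same-numbered libraries ran from -0.018 to 0.097, the highest for replicate 2 in eosinophil coculture. Some libraries correlated best with their own number and others did not, and so few libraries a group cannot exclude pairing. With the number as a replicate block, 5318 genes were higher and 5104 lower in ILC2 coculture, against 5315 and 5139 without it. In eosinophil coculture the block gave 2029 and 2139, against 1493 and 1771. The calls of the 8 genes were 5 and 3, and 0 and 3, with the block as without it. Among the 3 genes most like each of the 8, 2 or 3 remained for Egln3 and Egln1 under another pseudocount or library totals, 1 or 2 for Epas1, and 0 to 3 for the others.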
